A study of Mus musculus with 6 samples.

Results

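Serotonin receptor genes were described in hippocampal RNA-Seq values, with 3 mice of the genotype Phf21bΔ4/Δ4 (replicates 2, 3, and 6) set against 3 of the genotype Phf21b+/+ (replicates 5, 7, and 8). The 10 genes chosen by symbol were Htr1a, Htr1b, Htr1d, Htr1f, Htr2a, Htr2c, Htr3a, Htr4, Htr5a, and Htr7, and 9 of them were among the 14477 genes tested. Htr1d was not among the listed genes and was not analysed here. The study asked how PHF21B, a plant homeodomain finger protein that reads histone marks, bears on the expression of neurotransmission genes in the hippocampus. Phf21bΔ4/Δ4 mice carry an out-of-frame deletion in exon 4 of Phf21b on both alleles, made by CRISPR/Cas9 in the whole body on a C57BL/6J background, and Phf21b+/+ littermates served as controls. No mouse was treated. The study used young adult males and females, and the labels do not give the sex of these 6 mice.

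Serotonin reaches the hippocampus through axons of the raphe nuclei, whose cell bodies lie in the brain stem. Its receptors fall into families by what they couple to: 5-HT1 and 5-HT5 receptors act through Gi/o proteins and lower cyclic AMP, 5-HT2 receptors act through Gq and phospholipase C, 5-HT4, 5-HT6, and 5-HT7 receptors act through Gs and raise cyclic AMP, and 5-HT3 receptors are cation channels. In the hippocampus, Htr1a is known from CA1 pyramidal and dentate granule cells, Htr3a from a class of GABAergic interneurons, and Htr2c from the choroid plexus as well as from neurons.

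Among the 9 receptor genes, Htr1a and Htr2a were higher in Phf21bΔ4/Δ4 hippocampus, by 2.01-fold and 1.77-fold, and none was called lower. Htr1b and Htr3a had about equally large differences and no overlap between genotypes, but did not pass the threshold. Values are CPM, the reads of a gene scaled to a common library size, back-transformed from the log2 CPM that the authors deposited, and differences are log2 fold changes of Phf21bΔ4/Δ4 against Phf21b+/+ from limma. A gene was called at a false discovery rate (FDR) under 0.1, by the Benjamini-Hochberg method over all 14477 genes, together with a fold change above 1.3. With these rules 1.22% of all genes were called, 0.553% higher and 0.663% lower, and of the 9 receptor genes 2 were called higher and 0 lower. At an unadjusted p under 0.05, 4 receptor genes were higher and 0 lower, where 11.6% of all genes were higher and 23.6% differed in either direction, and limma's voom on the recovered reads also called 0 lower. The 3 values of each genotype lay apart, all Phf21bΔ4/Δ4 values above all Phf21b+/+ values, for 4 receptor genes, where this held for 15.0% of all genes. For 0 receptor genes did all Phf21bΔ4/Δ4 values lie below, where 31.0% of all genes lay apart in either direction. The median log2 fold change was 0.58 over the 9 receptor genes and -0.02 over all genes.

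**Figure D1:**
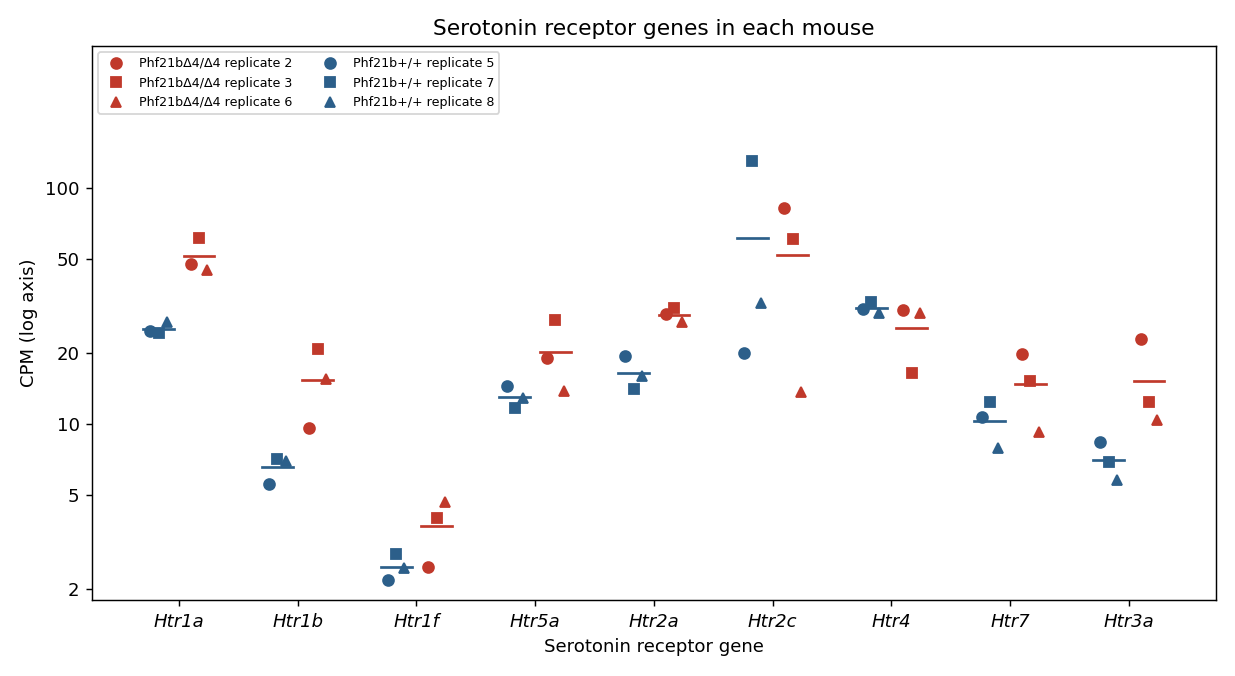
CPM of the 9 listed serotonin receptor genes (log axis) in each mouse, with blue for Phf21b+/+, red for Phf21bΔ4/Δ4, a marker shape for each replicate, and a line at the mean of each genotype. The genotypes lie apart for Htr1a, Htr1b, Htr2a, and Htr3a, and Htr2c spans 13.7 to 131 CPM.

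Depth was similar between mice, with 20495605 to 24881257 reads on the listed genes, so that 3 reads, taken as the limit that a count of 0 allows, stood for 0.127 to 0.143 CPM. This limit covers counting error only. Phf21b itself had 2.15, 3.57, and 3.87 CPM in Phf21bΔ4/Δ4 replicates 2, 3, and 6 and 6.5, 5.23, and 6.47 CPM in Phf21b+/+ replicates 5, 7, and 8, which did not overlap (log2 fold change -0.96, SE 0.26, limma FDR 0.141). The libraries also differed in markers of neighbouring tissue. All 10 medial habenula markers were lower in every Phf21bΔ4/Δ4 mouse (summed 54.5 to 102 CPM against 294 to 431 CPM), 8 of them called, and Pou4f1, Irx2, and Chat were under 3 reads in all 3. Over all genes, 31.0% lay apart in either direction and 0.663% were called lower. Choroid plexus markers summed to 15723 CPM in Phf21b+/+ replicate 7 and 977 CPM in replicate 8, against 22.9 to 80.7 CPM in the other 4 mice. Xist, the RNA of the inactive X chromosome, was at 86.9 to 216 CPM in all 6 mice, and 4 Y-linked genes were not among the listed genes. In bulk tissue, fewer cells of a type and less RNA per cell cannot be told apart.

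The receptor gene with the lowest FDR was Gi/o-coupled. Htr1a (ENSMUSG00000021721.5) encodes the 5-HT1A receptor, which opens G protein-gated potassium channels and quiets pyramidal cells. The annotation gives it 1 exon, on the plus strand of chr13:105443639-105448122 (GRCm38). Its level was 47.9, 61.3, and 45.2 CPM in Phf21bΔ4/Δ4 replicates 2, 3, and 6, and 24.8, 24.4, and 27.2 CPM in Phf21b+/+ replicates 5, 7, and 8. Every Phf21bΔ4/Δ4 value lay above every Phf21b+/+ value, and the Phf21b+/+ mice were close together. The means were 51.4 ± 8.6 and 25.5 ± 1.56 CPM (SD, n = 3 each), and the log2 fold change was 1.0 (SE 0.13, 95% interval 0.70 to 1.31, limma FDR 0.058). Htr1a ranked 32 by p among all genes and rested on 522 to 1286 reads per mouse.

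Htr1b (ENSMUSG00000049511.5), the 5-HT1B receptor of axon terminals that reduces transmitter release, lies on the minus strand of chr9:81628291-81633828. Its level was 9.66, 20.8, and 15.6 CPM in Phf21bΔ4/Δ4 replicates 2, 3, and 6 and 5.60, 7.13, and 6.97 CPM in Phf21b+/+ replicates 5, 7, and 8. The genotypes did not overlap, and the Phf21bΔ4/Δ4 mice spread more widely among themselves. The log2 fold change was 1.16 (SE 0.28, 95% interval 0.49 to 1.83) and missed the threshold (limma FDR 0.133). An antisense gene, D430036J16Rik, covers 18.0% of the exonic bases of Htr1b, and it was also higher in every Phf21bΔ4/Δ4 mouse (2.09 to 3.81 CPM against 0.759 to 1.62 CPM, limma FDR 0.146). The strand setting of the counting is not given in the sources used here, so reads of the shared stretch cannot be assigned to either gene.

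Htr1f and Htr5a differed less. Htr1f (ENSMUSG00000050783.5; chr16:64924729-65105854, minus strand), the 5-HT1F receptor, had 2.49, 4.0, and 4.70 CPM in Phf21bΔ4/Δ4 replicates 2, 3, and 6 and 2.18, 2.83, and 2.47 CPM in Phf21b+/+ replicates 5, 7, and 8. Replicate 2 of Phf21bΔ4/Δ4 lay within the Phf21b+/+ range, and the log2 fold change was 0.54 (95% interval -0.12 to 1.2, limma FDR 0.275). Htr5a (ENSMUSG00000039106.6; chr5:27842149-27855088, plus strand), the 5-HT5A receptor, had 19.1, 27.7, and 13.8 CPM against 14.6, 11.7, and 12.9 CPM in the same order of replicates. Here replicate 6 of Phf21bΔ4/Δ4 lay within the Phf21b+/+ range. The log2 fold change was 0.58 (95% interval -0.02 to 1.17, limma FDR 0.219).

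The Gq-coupled receptors behaved differently from each other. Htr2a (ENSMUSG00000034997.5) encodes the 5-HT2A receptor, an excitatory receptor of pyramidal cells and interneurons and the main target of classical hallucinogens, and has 3 exons on the plus strand of chr14:74640840-74709494. Its level was 29.3, 31.0, and 27.0 CPM in Phf21bΔ4/Δ4 replicates 2, 3, and 6 and 19.5, 14.2, and 16 CPM in Phf21b+/+ replicates 5, 7, and 8. The genotypes lay well apart, and both were tight. The means were 29.1 ± 2.0 and 16.6 ± 2.71 CPM (SD, n = 3 each), and the log2 fold change was 0.82 (SE 0.14, 95% interval 0.50 to 1.15, limma FDR 0.0787).

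Htr2c (ENSMUSG00000041380.13), the 5-HT2C receptor, whose RNA is edited by adenosine deaminases, lies on the plus strand of chrX:146962513-147197277. It varied more between mice than any other receptor gene here, with 82.2, 61.2, and 13.7 CPM in Phf21bΔ4/Δ4 replicates 2, 3, and 6 and 20.1, 131, and 32.6 CPM in Phf21b+/+ replicates 5, 7, and 8. The genotypes overlapped, and the log2 fold change was -0.11 with a 95% interval of -2.20 to 1.99 (limma FDR 0.948), which leaves room for a large difference in either direction. The highest value was that of Phf21b+/+ replicate 7, in which the choroid plexus marker Ttr stood at 14542 CPM. Without that mouse the log2 fold change of Htr2c was 0.68, and without Phf21bΔ4/Δ4 replicate 6 it was also 0.68, with limma FDRs of 0.673 and 0.551. Phf21bΔ4/Δ4 replicates 2 and 3 came next, and their choroid plexus markers summed to 80.7 and 22.9 CPM. The part of choroid plexus in these values was not tested.

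Neither Htr4 nor Htr7, both Gs-coupled, was called. Htr4 (ENSMUSG00000026322.9; chr18:62324204-62496577, plus strand), the 5-HT4 receptor, had 30.6, 16.5, and 29.7 CPM in Phf21bΔ4/Δ4 replicates 2, 3, and 6 and 30.7, 33.0, and 29.7 CPM in Phf21b+/+ replicates 5, 7, and 8. The 5 other mice were nearly level, and only Phf21bΔ4/Δ4 replicate 3 was low. The log2 fold change was -0.34 (95% interval -0.90 to 0.23, limma FDR 0.398), and without that mouse it was -0.05. Htr7 (ENSMUSG00000024798.15; chr19:35958734-36057507, minus strand), the 5-HT7 receptor, had 19.9, 15.3, and 9.26 CPM against 10.7, 12.4, and 7.96 CPM. The genotypes overlapped (log2 fold change 0.47, 95% interval -0.25 to 1.19, limma FDR 0.362).

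Htr3a (ENSMUSG00000032269.8), the obligatory subunit of the 5-HT3 channel, has 9 exons on the minus strand of chr9:48899213-48911099. Its level was 23.1, 12.4, and 10.4 CPM in Phf21bΔ4/Δ4 replicates 2, 3, and 6 and 8.40, 6.92, and 5.80 CPM in Phf21b+/+ replicates 5, 7, and 8. All Phf21bΔ4/Δ4 mice were above all Phf21b+/+ mice, with replicate 2 well above the rest. The log2 fold change was 1.05 (SE 0.31, 95% interval 0.31 to 1.78) and missed the threshold (limma FDR 0.151).

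**Figure D2:**
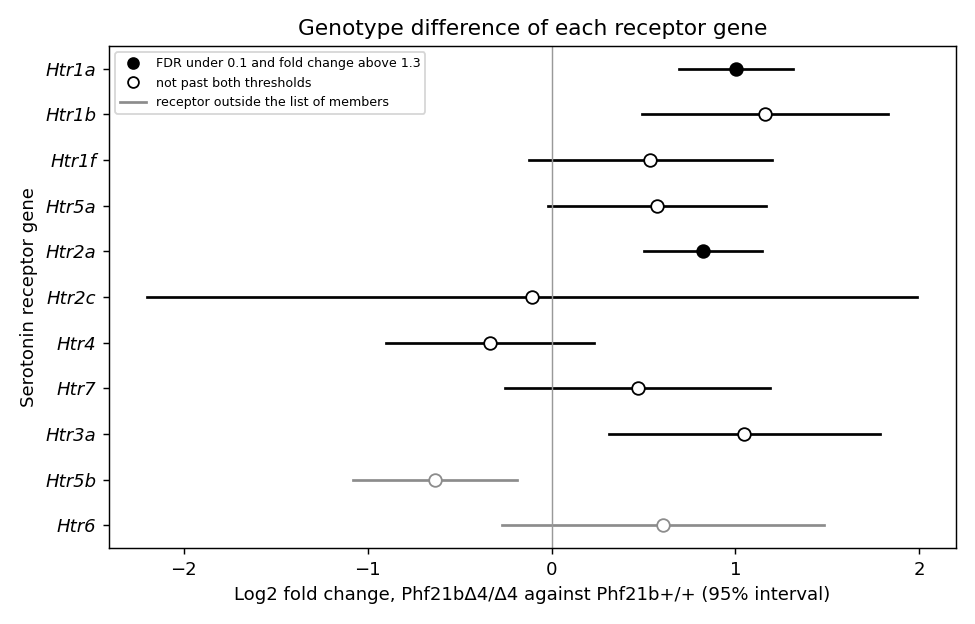
Log2 fold change (Phf21bΔ4/Δ4 against Phf21b+/+) of each serotonin receptor gene with its 95% interval from limma, filled where the FDR was under 0.1 and the fold change above 1.3, and gray for Htr5b and Htr6. Htr1a at 1.0 and Htr2a at 0.82 are filled, and the interval of Htr2c runs from -2.20 to 1.99.

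Of 4 further serotonin receptor genes, Htr5b and Htr6 were listed. Htr5b, the 5-HT5B receptor, was the only one of the 11 listed receptor genes with every Phf21bΔ4/Δ4 value below every Phf21b+/+ value (9.11, 7.38, and 8.74 CPM against 11.6, 11.2, and 16.8 CPM), and its log2 fold change of -0.63 missed the threshold (SE 0.19, limma FDR 0.151). Htr6, the 5-HT6 receptor, stood at 0.760 to 2.14 CPM and the genotypes overlapped (log2 fold change 0.60, 95% interval -0.27 to 1.48). The medial habenula markers were lower in the same 3 mice as Htr5b, and their part in its value was not tested.

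The mice did not move together across receptors. Phf21bΔ4/Δ4 replicate 3 was the highest of the 6 mice for Htr1a, Htr1b, Htr2a, and Htr5a and the lowest for Htr4, replicate 2 was the highest for Htr3a and Htr7, and replicate 6 was the highest for Htr1f and the lowest for Htr2c. In replicate 3 the markers of cortex and subiculum also summed to 410 CPM, against 117 to 217 CPM in the other 5 mice. Tshz2 gave 169 CPM of that sum. Fn1, Nts, Tshz2, Rorb, and Cux2 were highest in replicate 3, Rspo1 was lowest there, and Dlk1 and Scnn1a were highest in other mice. The part of cortex and subiculum tissue in the receptor values was not tested. Without Htr2c, the remaining 8 receptor genes summed to 182, 189, and 156 CPM in Phf21bΔ4/Δ4 replicates 2, 3, and 6 and to 116, 113, and 109 CPM in Phf21b+/+ replicates 5, 7, and 8, which did not overlap. With Htr2c included, the sums were 169 to 264 CPM and 137 to 243 CPM and overlapped. Htr2c made up 8.12% to 31.1% of the sum in Phf21bΔ4/Δ4 and 14.7% to 53.8% in Phf21b+/+ mice.

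Levels were also set per length, as CPM per kilobase of exonic sequence, so that receptors could be compared with each other. In Phf21b+/+ hippocampus the order was Htr5b (6.83 CPM per kilobase), Htr2c (6.56), Htr4 (6.34), and Htr1a (5.68), then Htr3a (3.38), Htr7 (3.05), Htr2a (2.95), and Htr5a (2.43), then Htr1b (1.39), Htr1f (0.967), and Htr6 (0.405). Within the first 4 and within the next 4, the ranges of neighbours in the order overlapped, and these steps cannot be ranked from 3 mice. Htr2c spanned 2.16 to 14.0 CPM per kilobase, with its highest value in Phf21b+/+ replicate 7. The part of choroid plexus in Htr2c and of medial habenula in Htr5b was not tested. In Phf21bΔ4/Δ4 hippocampus Htr1a came first (11.5 CPM per kilobase, range 10.1 to 13.7), followed by Htr3a (7.34), Htr2c (5.61), Htr4 (5.21), and Htr2a (5.19), with overlapping ranges down to Htr1b (3.25). Htr1a was at rank 4 in Phf21b+/+ and at rank 1 in Phf21bΔ4/Δ4 mice, where its range overlapped that of Htr3a. Htr1f (1.45) and Htr6 (0.634) were again the lowest.

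Several lists of cell type markers also differed between the genotypes, and no association with the receptor genes was computed. Of 7 CA1 pyramidal markers, 3 were called higher (Fibcd1, Mpped1, and Gpr161), and 4 were higher at an unadjusted p under 0.05. Over all genes, 11.6% were higher at that p. The genotypes overlapped for Wfs1, Pou3f1, and Spink8. The list summed to 884 to 992 CPM in Phf21bΔ4/Δ4 and 305 to 379 CPM in Phf21b+/+ mice. Of 11 interneuron markers, 2 were called higher (Gad2 and Cnr1), of which voom called only Gad2. At an unadjusted p under 0.05, 9 were higher, and the list summed to 1409 to 1833 CPM against 915 to 1069 CPM. The sum of interneuron markers was highest in Phf21bΔ4/Δ4 replicate 2, which also had the most Htr3a. That order rested on Cnr1, which gave 594 of 1833 CPM in replicate 2 and 449 of 1728 CPM in replicate 3. Single markers differed: Gad1, Gad2, Lhx6, and Cnr1 were highest in replicate 2. Slc32a1, Sst, Vip, and Reln were highest in Phf21bΔ4/Δ4 replicate 3, and Pvalb, Cck, and Npy in replicate 6. The part of a larger share of CA1 or interneuron tissue in Htr1a, Htr2a, Htr1b, and Htr3a was not tested. Dentate granule markers summed to 123 and 122 CPM in Phf21bΔ4/Δ4 replicates 2 and 3 but to 492 CPM in replicate 6, of which Lct gave 148 CPM. The Phf21b+/+ mice were at 509 to 609 CPM. Singly, 5 of the 7 were lower in every Phf21bΔ4/Δ4 mouse, and Dsp and Lct overlapped. Of the 7, 0 were called by limma or by voom, and 6 were lower at an unadjusted p under 0.05. Over all genes, 31.0% lay apart and 23.6% had an unadjusted p under 0.05, each in either direction. The part of dentate tissue in the receptor values was not tested. The sum of thalamus markers was lower in all 3 Phf21bΔ4/Δ4 mice (52.5 to 153 CPM against 187 to 396 CPM), with 1 of 7 called, Tcf7l2. Singly, 4 of the 7 were lower in every Phf21bΔ4/Δ4 mouse, where 31.0% of all genes lay apart in either direction. Lef1, Prkcd, and Plekhg1 overlapped. CA2 and CA3 markers summed to 171 to 426 CPM against 320 to 346 CPM, with 0 of 9 called by limma or by voom and 1 lower at an unadjusted p under 0.05.

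**Figure D3:**
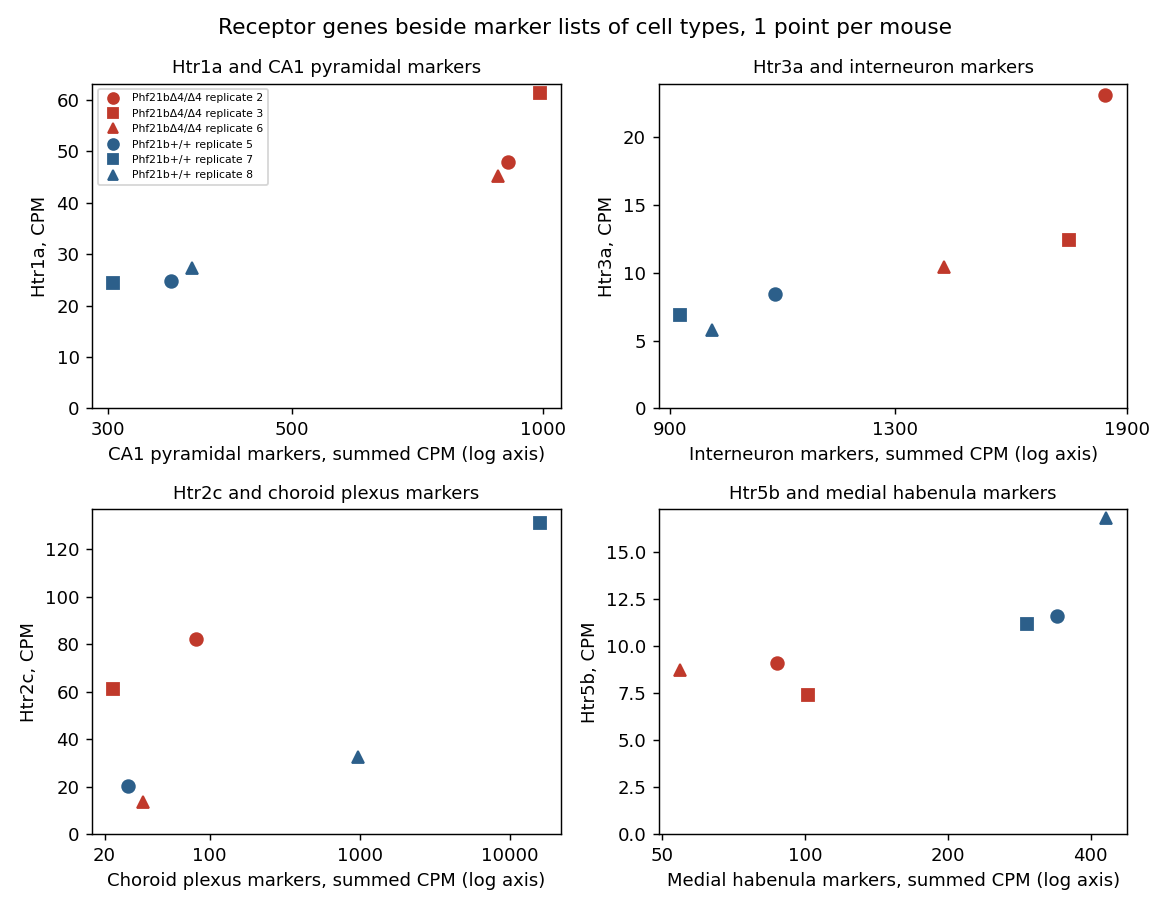
CPM of 4 receptor genes against the summed CPM of a marker list (log axis), 1 point per mouse, with blue for Phf21b+/+ and red for Phf21bΔ4/Δ4: Htr1a with CA1 pyramidal, Htr3a with interneuron, Htr2c with choroid plexus, and Htr5b with medial habenula markers. Phf21bΔ4/Δ4 mice sit at 884 to 992 CPM of CA1 markers and 45.2 to 61.3 CPM of Htr1a, Phf21b+/+ mice sit at 305 to 379 CPM and 24.4 to 27.2 CPM, and Htr2c was highest in the mouse with 15723 CPM of choroid plexus markers.

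The rest of the serotonin pathway was read from 6 gene lists, of whose 60 genes 54 were listed. Among these, 2 were called higher and 0 lower, with 14 higher and 13 lower at an unadjusted p under 0.05, and limma's voom called 1, Prkcb. Over all genes, 0.553% were called higher, and at an unadjusted p under 0.05, 11.6% were higher and 23.6% differed in either direction. Both called genes belong to the Gq list, which holds the G proteins, phospholipases, and kinases downstream of 5-HT2 receptors. Prkcb, protein kinase C beta, had 735, 849, and 771 CPM in Phf21bΔ4/Δ4 replicates 2, 3, and 6 and 477, 398, and 528 CPM in Phf21b+/+ replicates 5, 7, and 8 (log2 fold change 0.75, SE 0.13, limma FDR 0.081). It was higher in all 3 Phf21bΔ4/Δ4 mice, like Htr2a. The median log2 fold change of the 9 Gq genes was 0.39, and not all pointed upward: the phospholipase gene Plcb4 had -0.99 (limma FDR 0.135) and was chosen for mention after its values were seen.

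Among the genes of serotonin synthesis, transport, and breakdown, 7 of 7 listed had a log2 fold change below 0, 5 with no overlap between genotypes, and 6 lower at an unadjusted p under 0.05, but 0 were called by limma or by voom. Over all genes, 47.6% had a log2 fold change above 0, 31.0% lay apart in either direction, and 23.6% had an unadjusted p under 0.05 in either direction. The median log2 fold change was -1.05. These genes were named after their values were seen. Tph2, the rate-limiting enzyme of neuronal serotonin synthesis, was at 0.524 to 2.52 CPM in Phf21bΔ4/Δ4 and 2.14 to 3.12 CPM in Phf21b+/+ mice, which overlapped. The tetrahydrobiopterin enzyme Gch1 (log2 fold change -1.15, limma FDR 0.136), the aromatic amino acid decarboxylase Ddc (-0.58, limma FDR 0.158), and the monoamine oxidases Maoa (-0.31, limma FDR 0.157) and Maob (-0.48, limma FDR 0.206) lay below 0 without passing the threshold. Ddc and Gch1 also serve catecholamine synthesis. The serotonin transporter Slc6a4 and the raphe transcription factor Fev were not among the listed genes. The transporter genes Slc18a2 (-1.37, limma FDR 0.185, genotypes overlapping) and Slc29a4 (-1.07, limma FDR 0.152) were not called either. Slc29a4 had 38.4 CPM in Phf21b+/+ replicate 7, against 16.6 and 17.6 CPM in replicates 5 and 8. Maob had 46.5 CPM against 26.7 and 31.5 CPM in the same mice. Phf21b+/+ replicate 7 was also the mouse with the most choroid plexus markers. The part of choroid plexus, and of the lower habenula and thalamus markers, in this list was not tested.

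In the 3 remaining lists 0 genes were called by limma or by voom. The Gi/o list (11 genes) had a median log2 fold change of 0.20, with 4 genes higher and 2 lower at an unadjusted p under 0.05. The Gs list (11 genes) had a median of 0.16, with 3 higher and 1 lower. Receptor partners, editing enzymes, and regulators of Htr1a (14 genes) had a median of 0.15, with 2 higher and 1 lower. Over all genes, 11.6% were higher and 23.6% differed in either direction at that p.

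**Figure D4:**
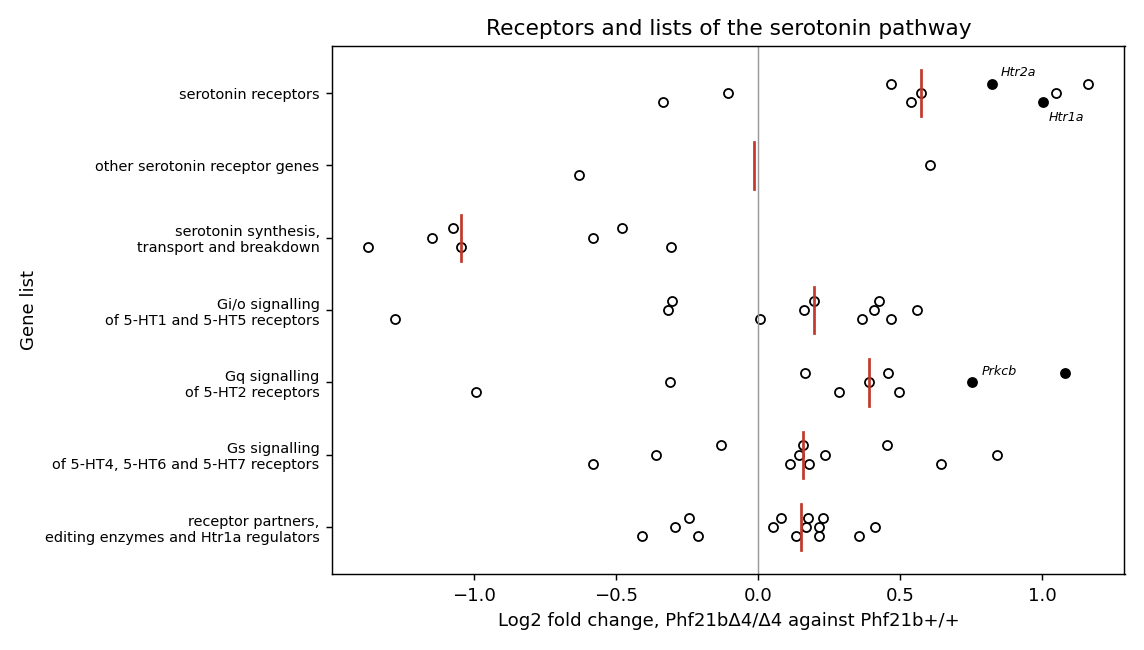
Log2 fold change of each listed gene in the receptor set and the 6 pathway lists, 1 point per gene, with a line at each list's median and filled points for called genes. Htr1a, Htr2a, and Prkcb are among the filled points and are named, and all 7 genes of synthesis, transport, and breakdown lie below 0.

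The sequence just upstream of the start of Htr1a and Htr2a, the receptors that passed the threshold, and of Htr1b, which had the largest log2 fold change, is shown because all 3 genes were higher in every Phf21bΔ4/Δ4 mouse. RefSeq (GRCm38.p6) gave promoter windows for 7 of the 9 genes, with none for Htr3a or Htr4. Each stretch runs 5′ to 3′ on the strand of the gene and ends before the first annotated start, and capitals mark GC box letters (GGGCGG) in Htr1a and Htr2a and CCAAT box letters (CCAAT) in Htr1b, read on either strand. They lie at chr13:105443443-105443638 (plus strand), chr14:74640624-74640839 (plus strand), and chr9:81633833-81634082 (minus strand).
Htr1a: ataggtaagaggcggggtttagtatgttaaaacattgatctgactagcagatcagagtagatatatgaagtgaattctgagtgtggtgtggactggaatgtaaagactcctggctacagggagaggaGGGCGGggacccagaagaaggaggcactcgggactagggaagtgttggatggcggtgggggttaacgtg
Htr2a: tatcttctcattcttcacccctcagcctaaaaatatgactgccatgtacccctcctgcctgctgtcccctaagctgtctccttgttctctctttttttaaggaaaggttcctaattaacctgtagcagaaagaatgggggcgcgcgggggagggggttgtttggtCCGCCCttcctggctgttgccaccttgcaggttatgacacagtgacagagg
Htr1b: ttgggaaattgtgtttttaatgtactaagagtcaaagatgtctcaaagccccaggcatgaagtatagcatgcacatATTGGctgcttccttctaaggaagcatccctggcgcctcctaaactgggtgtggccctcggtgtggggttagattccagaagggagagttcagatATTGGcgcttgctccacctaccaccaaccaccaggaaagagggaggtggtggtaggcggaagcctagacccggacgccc
The GC box letters stood 123 bases before the RefSeq start of Htr1a and 85 bases before that of Htr2a, and the CCAAT letters 174 and 79 bases before that of Htr1b. They are common: in the 250 bases before the start, GGGCGG was present in 32.7% of 32851 RefSeq windows and in 2 of the 7 receptor windows, and CCAAT in 33.8% and in 2 of the 7. The cyclic AMP response element to which CREB binds (TGACGTCA) was present in 1.55% of all windows and in 0 receptor windows, and its shorter form TGACG, which lies inside it, in 17.8% and in 1 (Htr7). TATAAA was present in 12.4% and in 0. These counts describe letters only.

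The genes next to the receptors were also examined. The nearest listed gene on each side of the 9 receptor genes gave 18 neighbours, at 7.58 to 1457 kb, of which 0 were called by limma or by voom and 5 had an unadjusted p under 0.05, a share near the 23.6% of all genes. Both neighbours of Htr1a, Rnf180 and Ipo11, were among these 5, at log2 fold changes of 0.28 and 0.32 against 1.0 for Htr1a. The rest were Mei4 beside Htr1b (1.19, against 1.16 for Htr1b), Zbtb16 beside Htr3a (0.71, against 1.05), and Rpp30 beside Htr7 (-0.32, against 0.47). These 5 neighbours were named after their values were seen.

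The calls of Htr1a and Htr2a changed with which mice were included. With 1 mouse left out, the log2 fold change of Htr1a ran from 0.87 to 1.09 and that of Htr2a from 0.72 to 0.95, but Htr1a passed the threshold in 2 of 6 such fits (without Phf21bΔ4/Δ4 replicate 3 or 6, limma FDRs 0.076 and 0.014) and Htr2a in 1 of 6 (without Phf21bΔ4/Δ4 replicate 6, limma FDR 0.028). In the other fits the FDRs were 0.113 to 0.242 for Htr1a and 0.109 to 0.305 for Htr2a. The number of called receptor genes went from 0 without Phf21bΔ4/Δ4 replicate 2 or any 1 of the Phf21b+/+ mice to 6 without Phf21bΔ4/Δ4 replicate 6, while the number over all genes went from 9 to 2830. Single genes were not tested by exact permutation, which with 3 against 3 mice gives no p below 0.1.

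**Figure D5:**
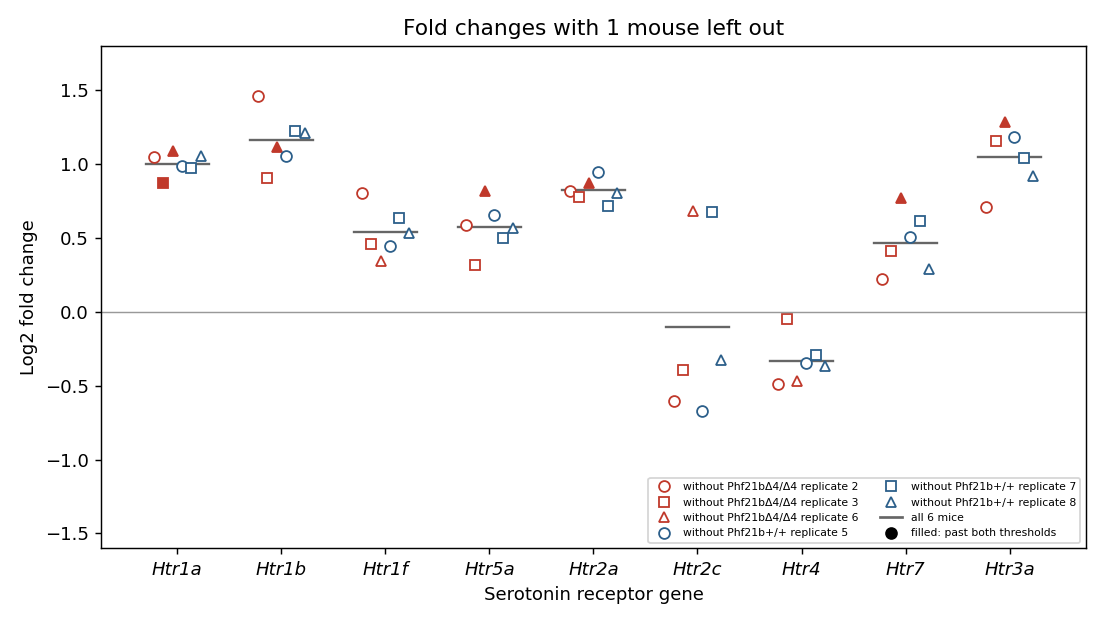
Log2 fold change of each serotonin receptor gene with all 6 mice (line) and without each 1 of them (points, filled where the gene was called). Htr1a stays between 0.87 and 1.09 and Htr2a between 0.72 and 0.95, and Htr2c runs from -0.67 to 0.68.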

How the data were processed

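RNA was extracted from hippocampal tissue and sequenced as single-end reads after ribosomal RNA depletion. Per the submitters' processing notes and the study's methods, the authors trimmed reads with Trimmomatic (0.39), mapped them to GRCm38 with STAR (2.7.3a), counted them over GENCODE genes with featureCounts of Subread (1.6.4), filtered out genes unless 2 or more samples reached a CPM of 1, and normalized with edgeR. The authors deposited log2 CPM, with a prior count of about 0.1 read added, so 0 reads stand at -7.81. Genes under the filter are not among the values.

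CPM was computed by removing that offset, and whole reads were recovered for 100% of values (tolerance 0.1 read). Genotypes were taken from the sample labels. Log2 CPM was tested with limma (3.58.1, R 4.3.3) with a prior variance that follows the mean, and p-values were adjusted by Benjamini-Hochberg over all genes. The thresholds were those of the study, whose authors tested counts. Low genes have compressed fold changes. The p-values set the genotype difference against the spread among mice of the same genotype, drawn towards that prior variance. The labels give separate mice but no batch or litter, and neither was part of the fit. The test was checked on simulated data. Exons were read from GENCODE release 21, where the authors used release 24, and 98.8% of symbols were found. Named were the receptor genes, Phf21b, called pathway genes, and markers beside a result, and other names are said to be chosen later. The values of 1 called pathway gene are not reported here. The members and lists were chosen with earlier results of these data known. Alternatives were another prior variance, weights, filter, pseudocount, normalization, voom, thresholds, and leaving out each mouse.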

Additional observations from a re-analysis of the deposited data

How the results depend on the processing

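No paired analysis was possible because the labels give no litter or other link between mice of the different genotypes. The main counts were 176 of all genes, 2 receptor genes, and 2 pathway genes. With the same prior variance for all genes they were 75, 1 (Htr1a, with Htr2a at a limma FDR of 0.129), and 0. With mice weighted by limma's arrayWeights they were 3549, 6, and 23. With genes under a mean log2 CPM of 1 left out, the count over all genes was 101 and over the pathway 1, higher. The pathway count was 1 higher with voom, and 0 higher and 1 lower with quantile normalization, where neither of the 2 higher calls held. At an FDR under 0.05 the counts were 25, 0, and 0. With 1 mouse left out they ran from 9 to 2830, from 0 to 6, and from 0 to 19. The log2 fold change of Htr2c, -0.11 with all mice, ran from -0.67 to 0.68 with 1 mouse left out, and turned to 0.88 with arrayWeights and to 0.68 without Phf21bΔ4/Δ4 replicate 6 or Phf21b+/+ replicate 7. In those and all other alternatives run, the other 8 receptor genes kept their direction. Of 126 alternative values of single receptor genes, 103 kept direction and side of the threshold, 12 lost and 8 gained a call, and 3 turned. The causes were not tested. Depth was lowest for Htr6, at 18 to 45 reads per mouse, and then for Htr1f, at 46 to 108.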
